A study of Mus musculus with 9 samples.

Results

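The Bcl2 family genes that set survival against mitochondrial death were followed through the RNAseq of BRCA-deficient mammary tumors treated with Talazoparib. The 10 genes were *Bcl2*, *Bcl2l1*, *Bcl2l2*, *Mcl1*, *Bak1*, *Bok*, *Bid*, *Bad*, *Bcl2l11* and *Bmf*, picked by symbol from the 35275 genes of the count table, with the p53 targets *Bax*, *Bbc3* and *Pmaip1* left aside. All 10 genes were found, and all 10 passed the filter on low counts that kept 15821 genes for testing. Tumors came from Brca1Co/Co;MMTV-Cre;p53+/- mice. All groups therefore shared a conditional *Brca1* allele on both chromosomes, a Cre recombinase driven by the mammary tumor virus promoter, which is active mainly in mammary epithelium and also in some blood cells, and the loss of 1 copy of the gene for p53. The age of the mice was not given in the sources used here. The 3 groups were saline, free Talazoparib by vein (i.v. TLZ) and Talazoparib in liposomal nanoparticles (NanoTLZ), with 3 tumors each. Both forms of the drug, an inhibitor of the repair enzyme PARP, were given at 0.33 mg/kg for 5 doses, 3 times a week. Tumors are numbered within a group only to name them. The study counts its replicates as mice, so that the tumors of a group came from separate animals, and the p-values measure the spread between them.

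In the mitochondrial pathway of apoptosis, prosurvival proteins of this family hold effector proteins in check at the outer mitochondrial membrane. BH3-only proteins, the sensors of stress, bind the prosurvival proteins or the effectors and thereby free the effectors to open the membrane. Cytochrome c then leaves the mitochondria, and caspases are activated. In the mammary gland some genes of this family take part in the loss of epithelium when lactation ends. Many genes of the family are regulated after transcription, so that a transcript level is not a protein level. The 10 genes hold 4 prosurvival members (*Bcl2*, *Bcl2l1* for Bcl-xL, *Bcl2l2* for Bcl-w, *Mcl1*), 2 effectors (*Bak1*, *Bok*) and 4 BH3-only members (*Bid*, *Bad*, *Bcl2l11* for Bim, *Bmf*).

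The tumors held between 17538380 and 21194980 counts. In bulk tumor RNA, fewer cells of a type and less RNA per cell cannot be told apart. Saline tumor 3 (saline 3) stood apart. It had the highest or the lowest CPM (counts scaled to library size by TMM) of the 9 tumors in 49.8% of the tested genes, against 10.8% to 32.5% for each of the others. It was at an extreme for 8 of the 10 Bcl2 family genes. The summed CPM of 6 skeletal muscle genes was 659 in saline 3, 22.3 and 172 in the other saline tumors and 1.84 to 4.07 in the treated tumors. The sum of 8 proliferation genes was 2248 in saline 3, 741 and 1317 in the other saline tumors and 388 to 745 in the treated tumors. The 7 epithelial marker genes were detected in all tumors, with sums of 3586 to 8375 CPM, as the label of mammary tumor implies. Within the sum, saline 3 was highest in *Krt5*, with 1849 CPM against 2.30 to 72.9 CPM in the other 8 tumors. It was lowest in *Krt19*, with 31.2 CPM against 173 to 702 CPM. The part of muscle, proliferation and epithelial transcripts in the results on the family was not tested. The plot of fold changes gives each of the 10 genes with and without saline 3. Transcripts of the genotype were counted in all tumors, *Brca1* at 9.46 to 42.7 CPM and *Trp53* at 23.4 to 108 CPM.

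The start regions of 4 genes are shown because the results turn on them. *Bcl2l1* was the gene whose treated and saline tumors did not overlap, and *Bmf* and *Bok* had the widest spread among saline tumors. *Bcl2l11*, like *Bmf*, had its lowest value in saline 3, which was also the lowest tumor for *Bcl2l1*, *Bcl2l2*, *Mcl1* and *Bak1*. The windows hold 250 bases before the most upstream transcription start of a gene, from RefSeq on GRCm38.p6, written 5′ to 3′ on the strand of the gene. Capitals mark matches, on either strand, to a GC box, which is GGGCGG. They also mark the CCAAT box, searched under the letters of its name, and the FOXO site, for which the letters searched were GTAAACA.
Bcl2l1 (chr2:152831729-152831978, minus strand): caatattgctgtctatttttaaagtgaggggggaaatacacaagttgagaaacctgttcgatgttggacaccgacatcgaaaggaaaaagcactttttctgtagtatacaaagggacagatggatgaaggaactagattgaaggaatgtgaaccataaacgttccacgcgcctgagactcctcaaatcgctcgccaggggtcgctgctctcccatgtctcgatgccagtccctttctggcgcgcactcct
Bcl2l11 (chr2:128125788-128126037, plus strand): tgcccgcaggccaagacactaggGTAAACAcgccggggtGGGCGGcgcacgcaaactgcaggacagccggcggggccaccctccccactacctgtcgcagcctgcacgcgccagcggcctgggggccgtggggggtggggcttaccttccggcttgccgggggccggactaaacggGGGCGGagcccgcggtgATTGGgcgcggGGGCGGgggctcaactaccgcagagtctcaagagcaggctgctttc
Bmf (chr2:118549687-118549936, minus strand): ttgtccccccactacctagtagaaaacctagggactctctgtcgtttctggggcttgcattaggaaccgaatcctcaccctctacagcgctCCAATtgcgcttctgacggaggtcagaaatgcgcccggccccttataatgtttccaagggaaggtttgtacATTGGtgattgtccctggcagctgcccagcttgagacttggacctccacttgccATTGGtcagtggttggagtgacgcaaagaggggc
Bok (chr1:93685325-93685574, plus strand): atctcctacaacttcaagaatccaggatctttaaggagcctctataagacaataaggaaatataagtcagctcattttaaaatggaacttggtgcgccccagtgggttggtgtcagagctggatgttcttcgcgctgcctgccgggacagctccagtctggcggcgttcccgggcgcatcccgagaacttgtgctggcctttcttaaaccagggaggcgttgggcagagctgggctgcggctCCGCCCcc
The window shown for *Bcl2l1* held none of the motifs searched, which also were an E-box (CACGTG), an AP-1 site (TGANTCA), a single p53 decamer and an NF-kB site. *Bcl2l11* had 3 GC boxes, 1 CCAAT box and 1 FOXO site. *Bmf* had 3 CCAAT boxes, and *Bok* had 1 GC box 8 bases before the start. Of the windows at starts farther downstream, not shown, 1 of *Bcl2l1* held an NF-kB site and 1 of *Bmf* a p53 decamer. Of 32851 windows of the same length over the genome, 32.7% held a GC box, 33.8% a CCAAT box and 3.17% a FOXO site. The other shares were 6.02% for the E-box, 6.75% for the AP-1 site, 7.13% for the p53 decamer and 7.25% for the NF-kB site. The GC content was 72% for *Bcl2l11*, 55.2% for *Bok*, 54% for *Bmf* and 47.6% for *Bcl2l1*, beside a median of 52.4%. A match is a description of the letters and shows no binding.

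Levels were compared between genes only as RPKM, the CPM per kilobase of merged exons. *Mcl1*, a short-lived prosurvival protein that restrains Bak, had the most transcript of the 10, with 119.7 ± 20.1 RPKM (SD, n = 9 tumors). It was above the next gene, *Bcl2l1* with 31.0 ± 9.72 RPKM, in 9 of 9 tumors. *Bcl2l1* in turn was above *Bad*, with 16.6 ± 5.36 RPKM, in 8 of 9 tumors. Below these, neighbours in the order crossed each other in at least 2 tumors. *Bmf*, *Bcl2l2*, *Bak1* and *Bok* had means of 13.1, 12.4, 12.0 and 10.6 RPKM, and *Bid* and *Bcl2l11* had 8.68 and 8.63 RPKM. *Bcl2* had the lowest mean, 5.55 ± 1.60 RPKM, and was under *Bcl2l11* in 6 of 9 tumors. With the length of the longest transcript in place of merged exons, *Mcl1*, *Bcl2l1* and *Bad* kept the first places and *Bcl2* the last, while *Bak1* moved to ninth place and *Bcl2l11* to sixth place.

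**Figure D1:**
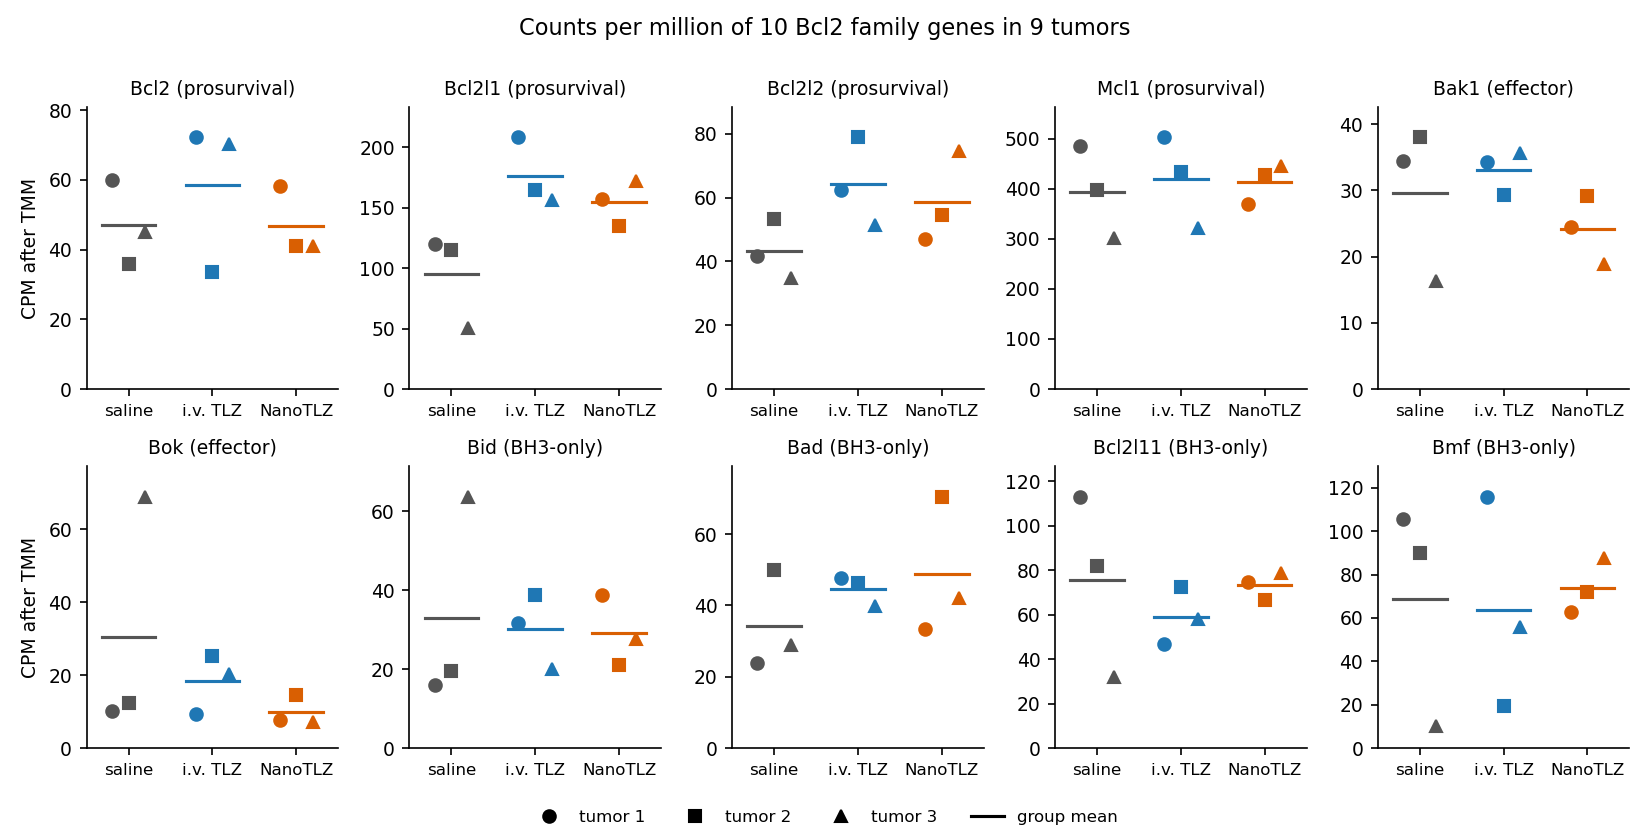
CPM after TMM (linear axes from 0) of the 10 genes in 9 tumors, with 1 symbol per tumor and a line at each group mean. The 6 treated tumors lay between 135 and 208 CPM for Bcl2l1, above the 3 saline tumors, and for the other 9 genes the treated and saline tumors overlapped.

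Among the prosurvival genes, *Bcl2l1* was the one whose 6 treated tumors all lay above the 3 saline tumors. Bcl-xL, its product, restrains the effectors Bak and Bax and is a long-lived protein. *Bcl2l1* had 120.3, 115 and 50.3 CPM in the saline tumors. The i.v. TLZ tumors had 208, 165 and 157 CPM, and the NanoTLZ tumors had 157, 135 and 172 CPM. Neither treated group overlapped the saline group, beside 11.2% of all tested genes for i.v. TLZ and 15.9% for NanoTLZ. The 2 treated groups overlapped each other. In the fit of edgeR to all tested genes, the log2 fold change was 0.89 ± 0.34 (SE) after i.v. TLZ, with an adjusted p of 0.444, and 0.70 ± 0.34 after NanoTLZ, with an adjusted p of 0.566. For both treatments against saline it was 0.80, with a 95% interval of 0.12 to 1.47, which is 1.74-fold, and the adjusted p by edgeR was 0.333. Without adjustment the p-value from edgeR was 0.0248, a level under 0.05 that 13.1% of all tested genes reached. Without saline 3 the log2 fold change for both treatments was 0.51 with an adjusted p of 0.536 by edgeR. Leaving out a tumor cannot make groups overlap that were apart, so that the lack of overlap without saline 3 adds nothing. In that setting 11.4% of all tested genes did not overlap. *Bcl2l1* did not pass the test, and it was higher than in any saline tumor in 6 of 6 treated tumors. Treated and saline tumors did not overlap for 5.47% of all tested genes, with 2.81% higher in the treated tumors.

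*Mcl1* was the most even of the 10 genes. It had 485, 397 and 300.8 CPM in the saline tumors, 502, 434 and 321 CPM in the i.v. TLZ tumors, and 369, 428 and 445 CPM in the NanoTLZ tumors. The 3 groups overlapped over most of their range. The log2 fold change for both treatments was 0.08, with a 95% interval of -0.49 to 0.65. A shift in either direction within that interval was not excluded by these tumors. The SD of its log2 CPM over the 9 tumors was 0.25, at percentile 5.87 of all tested genes.

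*Bcl2l2*, whose product Bcl-w is a further guard of the effectors, had 41.8, 53.3 and 34.9 CPM after saline. It had 62.5, 78.8 and 51.3 CPM after i.v. TLZ and 47.0, 54.6 and 74.6 CPM after NanoTLZ. Saline 2 lay inside the range of both treated groups. The log2 fold change for both treatments was 0.50 ± 0.26 (SE), with an adjusted p of 0.428 by edgeR. *Bcl2*, the founding member of the family, had 60.0, 35.9 and 45.2 CPM after saline. It had 72.2, 33.5 and 70.3 CPM after i.v. TLZ and 58.3, 40.9 and 41.0 CPM after NanoTLZ. The groups overlapped, and i.v. TLZ 2 was the lowest of the 9 tumors while the other i.v. TLZ tumors were the highest.

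The effectors differed from each other in pattern. *Bak1*, whose product opens the outer mitochondrial membrane, had 34.4, 38.0 and 16.4 CPM in the saline tumors. It had 34.3, 29.2 and 35.6 CPM in the i.v. TLZ tumors and 24.4, 29.2 and 18.9 CPM in the NanoTLZ tumors. All 3 NanoTLZ tumors were below all 3 i.v. TLZ tumors, the closest pair differing only past the third digit, and saline 3 was lower than either. The groups of this comparison did not overlap for 7.61% of all tested genes, with 4.41% lower, and *Bak1* was the only 1 of the 10 among them. The log2 fold change of NanoTLZ against i.v. TLZ was -0.45 ± 0.35 (SE), with an adjusted p by edgeR of 0.99994 over all tested genes.

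*Bok*, an effector that acts without the prosurvival guards, had 10.2, 12.4 and 69.0 CPM in the saline tumors. It had 9.45, 25.2 and 20.4 CPM in the i.v. TLZ tumors and 7.75, 14.6 and 7.24 CPM in the NanoTLZ tumors. Saline 3 was far above the other 8 tumors, among which the groups overlapped. The log2 fold change was -0.73 ± 0.71 (SE) after i.v. TLZ and -1.63 ± 0.72 after NanoTLZ, with an adjusted p by edgeR of 0.734 and 0.555. Without saline 3 these values were 0.71 and -0.17, so that the direction for i.v. TLZ turned with 1 tumor.

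Among the BH3-only genes, no group stood clear of another. *Bcl2l11* encodes Bim, which binds all prosurvival proteins and can activate the effectors. It had 113, 81.7 and 31.9 CPM after saline, 46.6, 72.4 and 57.9 CPM after i.v. TLZ, and 74.8, 66.6 and 78.7 CPM after NanoTLZ. Saline 1 was the highest and saline 3 the lowest of the 9 tumors, so that the saline group enclosed both treated groups. Without saline 3, all 6 treated tumors were below both remaining saline tumors, and the log2 fold change for both treatments was -0.54 with an adjusted p of 0.544 by edgeR. With that tumor left out, 11.4% of all tested genes did not overlap between treated and saline tumors.

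*Bmf* encodes a sensor tied to the cytoskeleton and is known for its part in the death of mammary epithelial cells that have lost contact. It had 106, 89.8 and 10.1 CPM after saline, 116, 19.6 and 55.8 CPM after i.v. TLZ, and 62.5, 71.9 and 87.6 CPM after NanoTLZ. Saline 3 and i.v. TLZ 2 were low and the NanoTLZ tumors lay close together. The SD of log2 CPM was 1.88 in the saline group, at percentile 94.5 of all tested genes in that group. It was 1.29 among the i.v. TLZ tumors, at percentile 90.5, and 0.24 among those given NanoTLZ, at percentile 39.3. The log2 fold change for both treatments was 0.00, with a 95% interval of -1.47 to 1.47.

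*Bid* links death receptors to mitochondria once it is cut by caspase-8. It had 16.0, 19.5 and 63.8 CPM after saline, 31.6, 38.8 and 20.1 CPM after i.v. TLZ, and 38.8, 21.0 and 27.6 CPM after NanoTLZ. Saline 3 was the highest and saline 1 the lowest of the 9 tumors. Without saline 3, all 6 treated tumors were above both remaining saline tumors, with a log2 fold change of 0.76 in place of -0.16 and an adjusted p of 0.546 by edgeR. Treated and saline tumors then did not overlap for 11.4% of all tested genes. The exons of *Bid* overlap those of *Bcl2l13* on the other strand, which also was highest in saline 3 with 123 CPM. Whether counting used the strand was not given in the sources used here, so that reads of the 2 genes cannot be told apart with certainty. *Bad* and *Bak1* overlap opposite-strand exons of *Gpr137* and *Ggnbp1* in the same way.

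*Bad*, a sensor that survival kinases switch off by phosphorylation, had 23.9, 50.0 and 29.0 CPM after saline. It had 47.7, 46.3 and 39.7 CPM after i.v. TLZ and 33.5, 70.5 and 42.2 CPM after NanoTLZ. Saline 2 was inside or above the treated values, and the other saline tumors were below all 6. The log2 fold change for both treatments was 0.44 ± 0.32 (SE), with an adjusted p of 0.564 by edgeR.

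No difference of the family between the groups passed the test. By edgeR, 0 of the 10 genes had an adjusted p under 0.05 in any comparison, as did 0%, 0.00632%, 0% and 0.019% of all tested genes for i.v. TLZ, NanoTLZ, NanoTLZ against i.v. TLZ and both treatments against saline. DESeq2 also called 0 of the 10. At an unadjusted p under 0.05, *Bcl2l1* was higher after i.v. TLZ, where 10.4% of all tested genes reached that level and 4.91% were higher. *Bok* was lower after NanoTLZ by the same measure, where 8.99% of all genes did and 5.49% were lower. In the same way 0 of the 10 genes reached it for NanoTLZ against i.v. TLZ, where 1.68% did. Groups that did not overlap were found for 1 of the 10 genes after i.v. TLZ and for 1 after NanoTLZ, both times *Bcl2l1*, beside 11.2% and 15.9% of all tested genes. Those that were higher after treatment made up 5.99% and 7.82% of all tested genes. For both treatments against saline it was again 1 gene, beside 5.47%, with 2.81% higher. The median log2 fold change of the 10 genes was 0.12 after i.v. TLZ and 0.03 after NanoTLZ, beside -0.03 and -0.09 over all tested genes. Without saline 3 the median was 0.29 after i.v. TLZ and -0.03 after NanoTLZ.

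**Figure D2:**
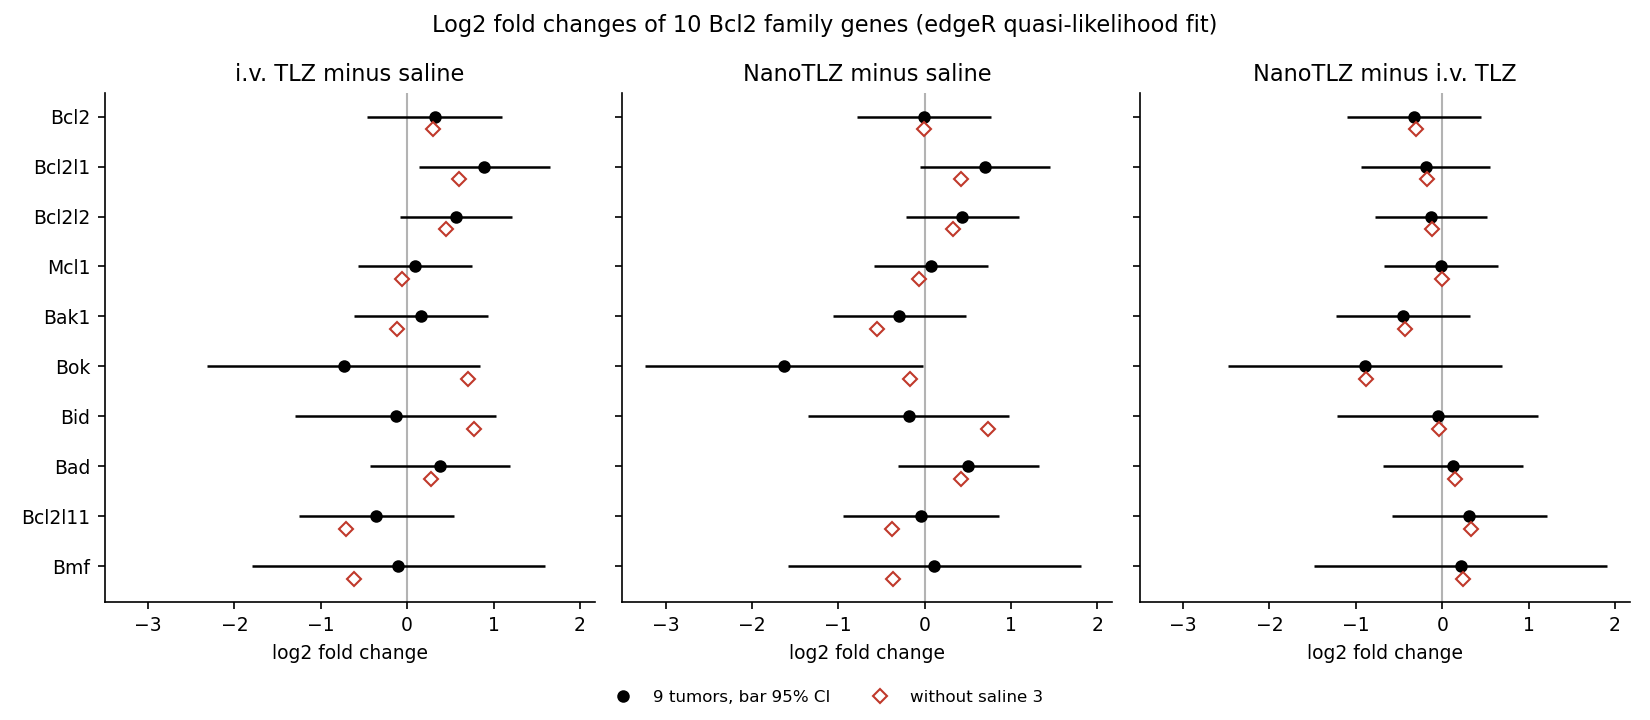
Log2 fold changes of the 10 genes in 3 comparisons, with 95% intervals from the fit to 9 tumors (filled) and the value without saline 3 (open). Intervals that leave out 0 are those of Bcl2l1 after i.v. TLZ and Bok after NanoTLZ, before adjustment, and Bok after i.v. TLZ went from -0.73 to 0.71 without saline 3.

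The balance of survival to death transcripts was described in each tumor from RPKM. The 4 prosurvival genes made up 73.0%, 67.7% and 58.4% of the summed RPKM of the 10 genes in the saline tumors. The share was 74.1%, 73.2% and 69.4% after i.v. TLZ and 72.7%, 69.4% and 75.1% after NanoTLZ. Saline 1 lay inside both treated ranges, and saline 2 and saline 3 lay below all 6 treated tumors. *Mcl1* alone made up 44.3% to 56.3% of the sum, and without it the prosurvival share was 32.2% ± 8.11 (SD, n = 3) after saline, 46.1% ± 1.14 with i.v. TLZ and 44.2% ± 5.52 with NanoTLZ. That share did overlap between NanoTLZ 2, with 37.9%, and saline 1, with 38.3%.

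The ratio of *Bcl2l1* to *Bak1* sets a guard against the effector that it restrains. As log2 of the RPKM ratio it was 0.87, 0.66 and 0.69 in the saline tumors, with saline 3 close to the others. The i.v. TLZ tumors had 1.67, 1.57 and 1.21, and the NanoTLZ tumors had 1.75, 1.28 and 2.25. All 6 treated tumors were above the 3 saline tumors, as they were for *Bcl2l1* itself, and the 2 treated groups overlapped. The group means were 0.74 ± 0.11 (SD, n = 3), 1.48 ± 0.24 and 1.76 ± 0.49. The ratio is given as a description with no test. The log2 ratio of *Mcl1* to *Bcl2l11* showed no such order, with means of 3.77 ± 0.61, 4.06 ± 0.52 and 3.73 ± 0.19, and neither did that of *Bcl2* to *Bcl2l11*, with -0.72 ± 0.91, -0.26 ± 0.92 and -0.86 ± 0.29.

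**Figure D3:**
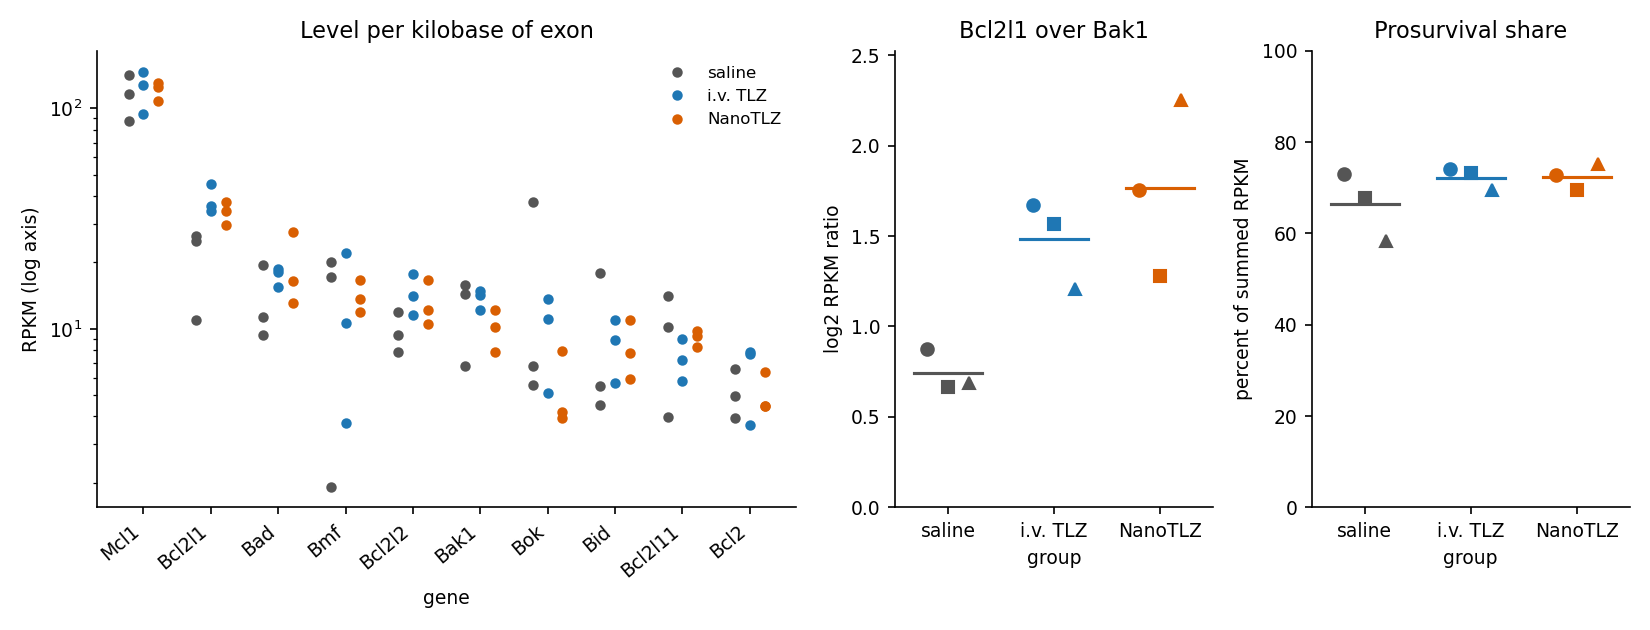
RPKM of the 10 genes by tumor on a log axis, ordered by mean (left), the log2 RPKM ratio of Bcl2l1 to Bak1 (middle) and the prosurvival share of the summed RPKM (right), with lines at group means. Mcl1 was highest in all 9 tumors, and the ratio was 1.21 to 2.25 in treated against 0.66 to 0.87 in saline tumors, while the shares overlapped.

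The spread among saline tumors was widest for *Bmf*, *Bok* and *Bid*, all death genes, and narrowest for *Bcl2l2*. The saline SD of log2 CPM was 1.51 for *Bok* and 1.07 for *Bid*, at percentiles 90.3 and 80.0 of all tested genes, and 0.37 for *Bcl2* and 0.31 for *Bcl2l2*, at percentiles 26.2 and 18.9. After NanoTLZ the largest SDs of the 10 genes were 0.554 for *Bok* and 0.548 for *Bad*, there at percentiles 77.9 and 77.4. Percentiles were taken within each group, so that the same SD ranks differently. An SD of 0.31 was at percentile 18.9 for *Bcl2l2* after saline and at percentile 51.6 for *Bak1* after NanoTLZ. Saline 3 was the tumor at the extreme for *Bmf*, *Bok* and *Bid*. Compared with the mean of the other saline tumors, its log2 CPM was higher by 2.60 for *Bok* and 1.84 for *Bid*, and it differed by -3.26 for *Bmf*, -1.59 for *Bcl2l11*, -1.22 for *Bcl2l1* and -1.14 for *Bak1*. *Bcl2* and *Bad* were inside the range of the other tumors.

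**Figure D4:**
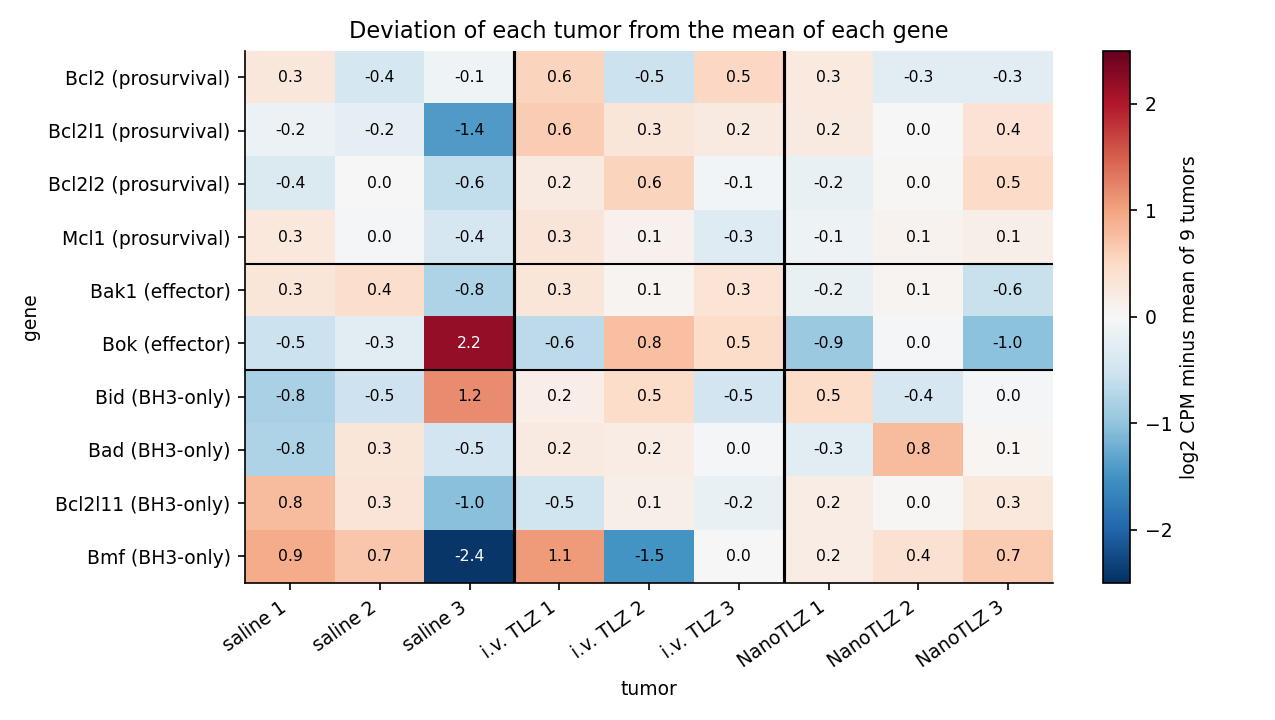
Log2 CPM of each tumor minus the mean of the 9 tumors, by gene (rows, grouped by role) and tumor (columns, grouped by treatment), red for higher and blue for lower. Saline 3 holds the strongest colors, with Bok and Bid high and Bmf, Bcl2l1, Bcl2l11 and Bak1 low.

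The genes whose profile over the 9 tumors was closest to each member were listed by the root mean square difference of centred log2 CPM. They share libraries with the members, and the likeness is a description. For *Bcl2l1* they were *Eif4ebp1*, a brake on translation, at 0.15 (Pearson r = 0.97), and *Crat*, an acetyl transferase of carnitine, at 0.16. For *Mcl1* they were *Pgrmc2* and *Kmt2e*, both at 0.11. For *Bmf* they were *Gimap8* and *Ipcef1*, at 0.24 and 0.26, and for *Bok* *Dnaic2* and *Gm3550*, at 0.31 and 0.33. *Bad* was close to *Myl6*, a myosin light chain, at 0.11. The nearest genes were *Gm13204* and *Arl2bp* for *Bcl2*, *Ppp1r12c* and *Nt5dc2* for *Bcl2l2*, *D17Wsu92e* and *Ctu2* for *Bak1*, *Rgs12* and *Psmg4* for *Bid*, and *Gcnt4* and *Enpp4* for *Bcl2l11*, at 0.13 to 0.22.

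Of 15 other genes of the family, 14 were tested and 0 had an adjusted p under 0.05 by edgeR. For both treatments against saline, 10 were higher and 4 lower, and 2 of the lower genes had an unadjusted p under 0.05, beside 8.29% of all tested genes that were lower at that level. *Bcl2l14*, a less studied relative, was the only 1 of the 14 whose groups did not overlap, beside 5.47% of all tested genes. It had 26.5, 24.2 and 93.4 CPM after saline, 4.12, 2.73 and 9.47 CPM after i.v. TLZ and 10.01, 7.64 and 4.55 CPM after NanoTLZ. All treated tumors were lower than all saline tumors, and the log2 fold change was -2.92 ± 0.52 (SE) with an adjusted p of 0.152 by edgeR. DESeq2 fitted to all 9 tumors gave an adjusted p of 7.32e-05 for the same gene, and edgeR without the filter on low counts gave 0.0273. Without saline 3 the log2 fold change of *Bcl2l14* was -1.98, with an adjusted p of 0.287 by edgeR. The p53 targets *Bax*, with 35.2 to 71.6 CPM after saline and 49.8 to 81.8 CPM in treated tumors, and *Bbc3*, with 6.87 to 14.7 and 8.91 to 28.5 CPM, overlapped between the groups. So did *Pmaip1*, with 4.91 to 37.7 and 9.68 to 26.2 CPM.

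Downstream of the family, 21 genes of caspase activation and its inhibitors were all tested, and 0 were called by edgeR. For both treatments, 8 were higher and 13 lower, 2 and 3 of them with an unadjusted p under 0.05, where 4.8% of all genes were higher and 8.29% lower at that level. The 2 higher genes were *Birc2* and *Birc3*, neighbors in the genome that were high in i.v. TLZ 2 and NanoTLZ 1 alone, while the other 7 tumors had 22.1 to 67.0 CPM of *Birc2* and 17.2 to 70.7 CPM of *Birc3*. *Xiap*, which blocks active caspases, had 148, 93.2 and 124 CPM after saline and 62.6 to 86.7 CPM in the treated tumors. It was the only 1 of the 21 whose treated and saline tumors did not overlap, beside 5.47% of all tested genes. Its log2 fold change was -0.68 ± 0.21 (SE), with an adjusted p by edgeR of 0.284. Without saline 3 the value for *Xiap* was -0.65. The 21 regulators that modify or bind the family, such as the ligases *Huwe1* and *Fbxw7* for Mcl1 and the kinases *Akt1* and *Rps6ka1* for Bad, also had 0 calls by edgeR. Of these, 19 were lower and 2 higher for both treatments, with a median of -0.26 beside -0.06 over all tested genes. With upper quartile normalization, or without saline 3, 16 were lower. Of the 21, 2 had an unadjusted p under 0.05, both of them lower, beside the 8.29% of all tested genes given above.

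The cell type markers fixed for the tumor were read in the same fit, with both treatments against saline. No marker of epithelium, T cells, B and plasma cells, myeloid cells, endothelium, fibroblasts, adipocytes or proliferation was called by edgeR. Of the 6 muscle genes *Myh4*, a fast muscle myosin, was called, with 6.01, 45.9 and 213 CPM after saline, 0 to 0.216 CPM in the treated tumors and an adjusted p of 0.0207. All 8 T cell genes and 6 fibroblast genes were higher, with medians of 1.08 and 0.80, and 5 of 7 epithelial genes were lower, with a median of -0.16. Without saline 3 these counts were the same, with medians of 0.77, 0.66 and -0.23. The T cell genes differed by treatment. After i.v. TLZ 5 were higher and 3 lower, with a median of 0.48, and after NanoTLZ all 8 were higher, with 1.65. Their levels were low, with sums of 7.04 to 20.0 CPM after saline, 7.43 to 28.1 CPM after i.v. TLZ and 19.5 to 42.4 CPM after NanoTLZ. Of 4 tested B and plasma cell genes 3 were higher and 1, *Cd79b*, was lower, with its highest value, 4.36 CPM, in saline 3. *Cd79a*, of B cells, had 0.0953 to 0.275 CPM after saline and 0.437 to 4.04 CPM in treated tumors, and *Dcn*, of fibroblasts, had 16.1 to 21.0 and 21.4 to 155 CPM. The 8 myeloid genes summed to 489 to 2276 CPM after saline and 1399 to 4176 CPM in treated tumors. The largest part of the sum in each tumor was the lysozyme gene *Lyz2*, with 192 to 1573 and 1144 to 3642 CPM. Of the 8 genes 7 were higher and 1 lower, and without saline 3 it was 5 and 3, with a median of 0.54 and of 0.19. Among the 7, *S100a8* and *Csf3r* were near 0, with log2 fold changes of 0.0076 and 0.00099. The lower gene was *S100a9*, with -0.41. Without saline 3 the lower genes were *S100a8*, *Csf3r* and *S100a9*, with -0.54, -0.51 and -0.95. All 8 proliferation genes were lower, with a median of -1.51 that was -0.65 without saline 3, and *Top2a* had 241 to 429 CPM after saline and 71.2 to 158 CPM in treated tumors. *Aurkb* had 23.2 to 89.3 and 12.6 to 22.8 CPM. How far these cell types bear on the values of the Bcl2 family was not tested.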

How the data were processed

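RNA from 9 mammary tumors, 3 per group, was sequenced by Novogene. The deposited table holds raw counts of reads for each gene, with 1 column per tumor and no normalization applied to the table. The submitters' processing notes name TopHat2, DESeq2 and the build mm10, with no role. The counting program, the annotation and the strand setting are not given in the sources used here.

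Of 35275 identifiers, 34490 matched a symbol in GENCODE M21 (GRCm38), 785 did not, and 9792 had no count. Total counts were 17538380 to 21194980, with a median of 19747343, and reads without molecular identifiers are not independent molecules. No 2 columns were identical. Genes were kept by filterByExpr (minimum count 10, minimum total 15) in edgeR 4.0.16 under R 4.3.3, normalized by TMM, and fitted to all 9 tumors with glmQLFit and glmQLFTest, 1 coefficient per group. The biological coefficient of variation was 49.8%. P-values were adjusted by Benjamini-Hochberg over 15821 genes and called under 0.05. The study names DESeq2; DESeq2 1.42.0 was an alternative. CPM used TMM library sizes, log2 CPM a prior count of 2, and RPKM the merged exon length of a gene. Tests across groups of 3 tumors rest on the spread shared over all 9 tumors. Figures and summaries used Python 3.11.15, pandas 2.3.3 and matplotlib 3.10.9.

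The fits were tested on simulated data.

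The 10 genes and the lists were chosen with earlier results of these data known. Named were these 10 genes, the 2 most similar genes of each, *Brca1*, *Trp53*, and from each list the genes called or, with none called, up to 2 with the largest change for both treatments among those whose groups did not overlap. *Bax*, *Bbc3*, *Pmaip1*, *Bcl2l13*, *Cd79b*, *Lyz2*, *Krt5*, *Krt19*, *S100a8*, *S100a9*, *Csf3r*, *Birc2*, *Birc3*, the neighbors of *Birc2* and *Birc3*, and the genes that overlap members were named outside this rule, after their values were seen. Alternatives were DESeq2, fits to the groups compared, upper quartile and RLE scaling, no filter, at least 10 counts in every tumor, each tumor left out, the longest transcript as length, and a prior count of 0.5. Protein sequences were not used here. A gene that the naming rule selects is not reported here.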

Additional observations from a re-analysis of the deposited data

How the results depend on the processing

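No adjusted p of the 10 genes was under 0.05 in any of the alternatives run, with lows of 0.205 for *Bcl2l1* and 0.217 for *Bok*, both treatments against saline without saline 2. No paired analysis was possible because the labels give no replicate numbers shared between groups. The count of genes called moved most with the tool, and its cause was not tested. DESeq2 on all 9 tumors called 201 genes for i.v. TLZ, 102 for NanoTLZ, 4 for NanoTLZ against i.v. TLZ and 278 for both treatments, against 0, 1, 0 and 3 by edgeR. DESeq2 on the groups compared called 79, 160 and 17, and edgeR on the same tumors called 0 for NanoTLZ. Without the filter on low counts, edgeR called 5, 6 and 33 for i.v. TLZ, NanoTLZ and both treatments, and with at least 10 counts in every tumor 1 for both. Leaving out 1 tumor gave 0 to 3 calls for NanoTLZ and 0 to 18 for both treatments, where 18 were called without saline 1. The median of the 10 genes ranged from -0.033 to 0.30 for NanoTLZ and from -0.038 to 0.27 for both treatments, the highest without saline 1. The count of genes with no overlap between treated and saline tumors was 1 to 3, with *Bcl2l2* and *Bad* added without saline 2, where 18.9% of all tested genes did not overlap, and *Bid* and *Bcl2l11* without saline 3, where 11.4% did not. With the longest transcript, the prosurvival share was 69.6% after i.v. TLZ and 69.0% after NanoTLZ. Of 620 alternative values of single genes, 54 turned their sign and 566 kept it, and none of the turned values was called. The 620 include fits without a tumor of the group not compared, which had little room to turn a value. *Bcl2l1* after i.v. TLZ, for example, was 0.89 to 0.90 with a NanoTLZ tumor left out. With 1 tumor left out, the log2 fold change after i.v. TLZ ranged from -0.063 to 0.27 for *Mcl1*, -0.12 to 0.38 for *Bak1*, -1.12 to 0.71 for *Bok*, -0.45 to 0.78 for *Bid*, -0.71 to 0.062 for *Bcl2l11* and -0.87 to 0.35 for *Bmf*. After NanoTLZ it ranged from -0.20 to 0.24 for *Bcl2*, -0.061 to 0.28 for *Mcl1*, -0.48 to 0.74 for *Bid*, -0.38 to 0.39 for *Bcl2l11* and -0.37 to 0.59 for *Bmf*. For NanoTLZ against i.v. TLZ it ranged from -0.32 to 0.047 for *Bcl2l2*, -0.16 to 0.13 for *Mcl1*, -0.31 to 0.17 for *Bid*, -0.22 to 0.34 for *Bad* and -0.21 to 0.98 for *Bmf*. For both treatments it ranged from -0.0071 to 0.39 for *Bcl2*, -0.060 to 0.28 for *Mcl1*, -0.34 to 0.15 for *Bak1*, -1.56 to 0.27 for *Bok*, -0.46 to 0.76 for *Bid*, -0.54 to 0.23 for *Bcl2l11* and -0.49 to 0.47 for *Bmf*. Values near 0 also turned with the scaling or filter. *Bcl2* after NanoTLZ was 0.0051 with DESeq2 on all 9 tumors and 0.0072 on the groups compared, 0.0050 with RLE, 0.0018 without a filter, 0.093 with upper quartile normalization and 0.017 with at least 10 counts in every tumor. With upper quartile normalization, *Bcl2l11* was 0.059 after NanoTLZ, *Mcl1* 0.0073 for NanoTLZ against i.v. TLZ and *Bak1* 0.0067 for both treatments. Without a filter, *Mcl1* was 0.0036 for NanoTLZ against i.v. TLZ and *Bmf* -0.0080 for both treatments. A depth of 17538380 counts or more left the smallest member with 7.24 CPM. The intervals rest on the spread shared over all 9 tumors, and the part of counting error in their width was not tested.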

Other observations

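*Birc2* and *Birc3*, which encode cIAP1 and cIAP2, inhibitors of death signaling beside the Bcl2 family, had high levels in 2 treated tumors and not in the others. *Birc2* had 252 CPM in i.v. TLZ 2 and 454 CPM in NanoTLZ 1, and 22.1 to 67.0 CPM in the other 7 tumors. *Birc3* had 407 and 764 CPM in the same tumors and 17.2 to 70.7 CPM elsewhere. The 2 genes are neighbors on chromosome 9 (GRCm38, *Birc2* at 7818227 to 7837064 and *Birc3* at 7848699 to 7873186). Of the 13 other tested genes within 1 Mb, 6 also had their 2 highest values in i.v. TLZ 2 and NanoTLZ 1 (46.2%), against 1.53% of all tested genes. Among them *Yap1*, a transcriptional co-activator of growth, had 1294 and 1737 CPM in these tumors and 70.1 to 277 CPM in the others, and *Dcun1d5* had 748 and 1097 CPM against 43.6 to 106 CPM. The matrix protease *Mmp13* in the same stretch did not follow, with 22.9 CPM in i.v. TLZ 2 and 724 CPM in NanoTLZ 1. This pattern was noticed after the values were seen, and its cause was not tested. Among the Bcl2 family genes, *Bid* had 38.8 CPM in both tumors, the highest of the treated tumors, while *Bmf* had 19.6 CPM in i.v. TLZ 2 and 62.5 CPM in NanoTLZ 1.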
